A study of Mus musculus with 24 samples.

Results

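10 immediate early genes were followed through RNA sequencing of mouse uterus and endometriotic lesions: Fos, Fosb, Jun, Junb, Egr1, Egr2, Nr4a1, Atf3, Ier2 and Ier3. They were taken from the deposited table by gene symbol, and each symbol stood on 1 of its 56691 lines. The study induced endometriosis by surgery at 8 weeks of age, or did sham surgery, and collected total RNA on pregnancy day 3.5, either 1 month or 3 months later. It compared sham uterus, the uterus in place of mice with endometriosis (eutopic) and the ectopic lesions of such mice (lesions), with 4 libraries in each of the 6 groups and 24 in all. The mice were of mixed C57BL/6 and SV129 background. The labels give Rosa26mTmG/+, a fluorescent reporter allele, for sham and eutopic uterus and Pgrcre/+Rosa26mTmG/+, which adds a Cre recombinase driven from the progesterone receptor gene, for lesions. The series text gives the Cre allele for the mice with endometriosis as well, so by the labels genotype and tissue cannot be told apart in comparisons with lesions, and by the series text genotype and surgery cannot be told apart in comparisons with sham. All mice at 1 month are labelled fertile, while at 3 months sham mice are labelled fertile and mice with endometriosis subfertile. Time after surgery and age go together.

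Immediate early genes are transcribed within minutes of a signal at the cell surface, before any new protein is made, because the factors that switch them on are already present and only need to be phosphorylated. Growth factors and stress act through MAP kinases on serum response factor and its ternary complex partners, and signals that raise cyclic AMP or calcium act on CREB. The products of Fos, Fosb, Jun, Junb and Atf3 pair through leucine zippers into AP-1 and related dimers, Egr1 and Egr2 encode zinc finger factors, and Nr4a1 encodes an orphan nuclear receptor. Their transcripts are short-lived, and in the uterus Fos and Egr1 are known as early responders to estrogen. The same genes are known to be induced by tissue handling and dissociation.

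The promoters are shown because the members that moved in lesions also had a short motif in common. RefSeq windows of 250 bases ending just before the transcription start (build GRCm38.p6, not the mm39 build of the counts) were used for 8 members, in 12 windows. None was used for Egr1, whose chromosome was left out of the search, or for Ier2. The motif counts below therefore leave out Egr1 and Ier2. The 5 printed windows lie at chr12:85473640-85473889 on the plus strand (Fos), chr10:67537619-67537868 on the plus strand (Egr2, 1 of its 5 windows), chr15:101266596-101266845 on the plus strand (Nr4a1), chr1:191183334-191183583 on the minus strand (Atf3) and chr17:35821463-35821712 on the plus strand (Ier3). They read 5′ to 3′, and capitals mark TGACG, the core bound by CREB and ATF factors, on either strand (CGTCA on the other strand), and the CArG box, the element of serum response factor.
Fos: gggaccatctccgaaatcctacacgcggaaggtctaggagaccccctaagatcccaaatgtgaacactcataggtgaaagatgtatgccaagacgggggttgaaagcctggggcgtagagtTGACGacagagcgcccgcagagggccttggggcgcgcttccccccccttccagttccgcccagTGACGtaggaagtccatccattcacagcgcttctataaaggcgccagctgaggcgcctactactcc
Egr2: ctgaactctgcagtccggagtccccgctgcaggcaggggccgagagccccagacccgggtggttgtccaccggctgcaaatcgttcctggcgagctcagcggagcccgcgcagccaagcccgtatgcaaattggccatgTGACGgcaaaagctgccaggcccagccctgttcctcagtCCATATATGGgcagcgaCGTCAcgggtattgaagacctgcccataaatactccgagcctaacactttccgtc
Nr4a1: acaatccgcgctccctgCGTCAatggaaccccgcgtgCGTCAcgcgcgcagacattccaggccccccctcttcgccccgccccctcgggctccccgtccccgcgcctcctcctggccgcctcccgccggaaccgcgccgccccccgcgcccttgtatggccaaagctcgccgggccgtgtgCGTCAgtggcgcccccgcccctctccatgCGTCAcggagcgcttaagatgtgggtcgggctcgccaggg
Atf3: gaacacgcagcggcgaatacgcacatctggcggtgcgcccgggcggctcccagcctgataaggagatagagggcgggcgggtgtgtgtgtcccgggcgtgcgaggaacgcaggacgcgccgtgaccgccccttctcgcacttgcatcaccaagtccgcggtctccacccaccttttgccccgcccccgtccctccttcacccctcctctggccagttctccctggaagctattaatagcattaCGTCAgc
Ier3: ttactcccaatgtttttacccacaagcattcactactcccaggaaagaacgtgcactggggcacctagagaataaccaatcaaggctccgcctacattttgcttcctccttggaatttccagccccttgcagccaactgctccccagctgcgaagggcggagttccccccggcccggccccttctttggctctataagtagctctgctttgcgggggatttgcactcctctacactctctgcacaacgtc
TGACG on either strand was found in at least 1 window of 6 of 8 members (Fos, Fosb, Junb, Egr2, Nr4a1 and Atf3). Counted by window it stood in 8 of 12, since 2 of the 5 Egr2 windows lacked it and the other 3 overlap each other, and in 17.8% of all 32851 RefSeq promoter windows of this length. Those 6 are the 6 members called higher in lesions at 3 months in the main test, while the windows of Jun and Ier3 held no exact match. That set of calls was not stable. A fit of the compared groups alone called only Egr2, Nr4a1 and Atf3, and Jun was called higher too without lesion library 1. Variants of the motif that differ by a letter were not searched. Egr1 and Ier2 were not called there either, but had no window searched, so whether they hold the motif is not known here. This is a description without a test, since the genes, the motif and the lesion result were all looked at together. The full palindrome TGACGTCA, which contains TGACG on both strands, was found in 0 of 8 members and in 1.55% of windows. A CArG box stood in 1 of 8 members (Egr2, 4 of its 5 windows) and in 1.47% of windows, the AP-1 motif TGANTCA in 0 of 8 and in 6.75%, and the EGR motif GCGNGGGCG in 2 of 8 (Fosb and Nr4a1) and in 4.70%. A match says that the letters are there and not that a factor binds them. Bases outside these windows were not searched, so a motif counted as missing may lie farther from the start.

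Total counts per library ran from 4.51e+07 to 5.94e+07, and the members held 87 to 11083 reads each in every library; the spread between libraries was mostly wider than counting error, but not for the least variable sets, such as Atf3 in eutopic uterus at 3 months (CV of 4.49%). Levels below are CPM, read counts relative to library size, scaled with TMM factors, which are not divided by gene length, so levels are compared between groups and not between genes. Which libraries came from the same mouse is not stated, and p-values therefore measure the spread between these samples, which may be technical. Uterine epithelium genes summed to 609 to 1919 CPM in the 16 uterine libraries and to 715 to 897 CPM in lesions at 1 month. At 3 months they summed to 126, 54.6, 982 and 761 CPM in lesion libraries 1 to 4. Lesion library 1 at 3 months held 22256 CPM of ovarian steroid synthesis genes, and its T cell (14.3 CPM), B cell (5.96 CPM) and macrophage genes (167 CPM) summed within or below the uterine ranges. Library 2 of that group held 42891 CPM of skeletal muscle and 2001 CPM of adipocyte genes, and libraries 3 and 4 held 13572 and 7116 CPM of skeletal muscle genes, against at most 317 CPM in uterine libraries. Among lesions at 1 month, library 2 had 75467 CPM in liver and pancreas genes. In bulk RNA a change in the number of cells of a type and a change in RNA per cell cannot be told apart, and the part of these tissues in the results below was not tested.

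**Figure D1:**
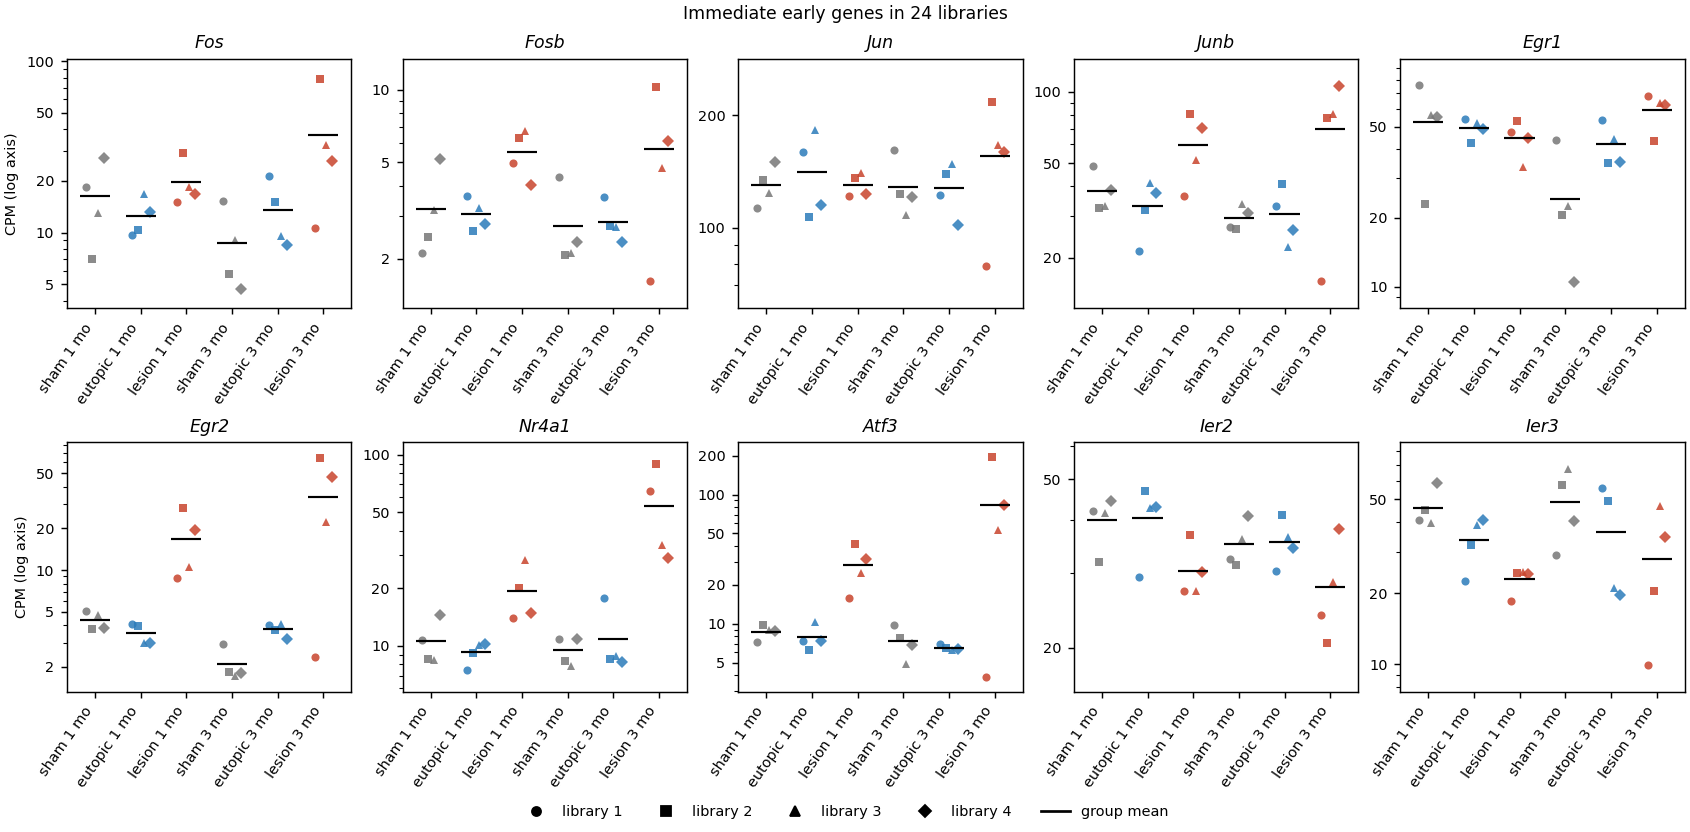
Level of each of the 10 genes in the 24 libraries, as CPM on log axes, with 1 point per library (symbol by library number) and a bar at the group mean. At 1 month Fosb, Egr2, Nr4a1 and Atf3 stand above the eutopic libraries of that time in all 4 lesion libraries, as do 17.5% of all genes. Lesions at 3 months spread from 3.87 to 195 CPM for Atf3.

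Lesions were first compared with the eutopic uterus. At 1 month 3 of the 10 rose in lesions and 0 fell in edgeR's quasi-likelihood test (Benjamini-Hochberg adjusted p under 0.05 over all 22249 genes tested, the rule for "called" throughout). Egr2 rose 4.75-fold, Atf3 3.63-fold and Nr4a1 2.09-fold. Over all genes 12.0% were called higher and 8.76% lower. The median log2 fold change of the 10 was 0.75, against -0.01 for all genes.

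Egr2 (ENSMUSG00000037868.16), a zinc finger factor also known from T cell tolerance and myelination, was at 8.74, 27.9, 10.6 and 19.4 CPM in lesion libraries 1 to 4 and at 4.11, 3.94, 2.97 and 2.99 CPM in eutopic uterus at 1 month. The lowest lesion library lay above the highest eutopic library. On the log2 scale Egr2 rose by 2.25, with an SE of 0.56 (edgeR, adjusted p = 0.0091), and ± after a fold change is 1 SE throughout.

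Atf3 (ENSMUSG00000026628.14), a stress-induced bZIP factor that can repress transcription as a homodimer, was at 15.9, 41.5, 24.5 and 31.9 CPM in lesions and at 7.38, 6.29, 10.3 and 7.36 CPM in eutopic uterus. Here too the groups did not overlap, and the log2 fold change was 1.86 ± 0.59 (edgeR, adjusted p = 0.030). Nr4a1 (ENSMUSG00000023034.8), an orphan receptor induced by antigen and growth signals, was at 14.0, 20.1, 28.3 and 14.9 CPM in lesions and at 7.49, 9.22, 10.1 and 10.2 CPM in eutopic uterus, again without overlap. It rose by 1.06 ± 0.33 on the log2 scale (edgeR, adjusted p = 0.027).

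The calls of Atf3 and Nr4a1 at 1 month were less stable than that of Egr2. Egr2 was called in each of the 8 fits that left out 1 library, with log2 fold changes from 1.87 to 2.45, while Atf3 and Nr4a1 were each called in 2 of the 8. Without lesion library 2, which carried the liver and pancreas genes, and without eutopic library 2, 3 or 4, Egr2 was the 1 member called, and without eutopic library 1 Ier2 was called lower beside it. Atf3 kept its call without lesion library 1 or 3 and Nr4a1 without lesion library 1 or 4.

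Among the other members at 1 month, Fosb had a log2 fold change of 0.85 ± 0.39 (edgeR, adjusted p = 0.12) and Junb 0.86 ± 0.37 (edgeR, adjusted p = 0.10). Fosb was at 4.05 to 6.72 CPM in lesions and 2.61 to 3.62 CPM in eutopic uterus, so it was the 4th member without overlap between the groups, where 17.5% of all genes lay higher without overlap. Junb was at 36.4 to 80.7 CPM in lesions and 21.4 to 41.4 CPM in eutopic uterus. With only the 8 compared libraries in the fit, and with limma voom, both were called higher, and 6 members were called in each of these fits, with Ier3 (adjusted p = 0.044) lower in the first and Ier2 (adjusted p = 0.0018) lower in the second. These fits called more of other genes too. Of the 85 tested genes of the pathway lists below, the main test called 19 higher and 4 lower. The fit of the compared libraries called 31 and 7, and limma voom 32 and 10. In the main test Fos (0.66 ± 0.50), Jun (-0.12 ± 0.22), Egr1 (-0.15 ± 0.33), Ier2 (-0.42 ± 0.18) and Ier3 (-0.55 ± 0.39) were not called.

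At 3 months 6 of the 10 immediate early genes rose in lesions and 0 fell, where 23.4% of all genes were called higher and 17.1% lower. Atf3 rose 12.8-fold, Egr2 9.05-fold, Nr4a1 4.99-fold, Fos 2.72-fold, Junb 2.29-fold and Fosb 2.0-fold. The median log2 fold change of the 10 was 1.10, against 0.04 for all genes. Nr4a1 was the 1 member whose lesion libraries all lay above the eutopic ones, which held for 10.1% of all genes.

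Atf3 was at 3.87, 195, 52.8 and 82.7 CPM in lesion libraries 1 to 4 and between 6.28 and 6.92 CPM in eutopic uterus at 3 months. Libraries 2, 3 and 4 lay far above every uterine library, and library 1, with the ovarian genes, lay below the lowest of them. The log2 fold change was 3.68 ± 0.63 (edgeR, adjusted p = 0.00017). Without library 1 it was 4.08, and without libraries 1 and 2 it was 3.35 (edgeR, adjusted p = 1.5e-07).

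Egr2 had the same order of libraries, at 2.35, 64.2, 22.2 and 46.8 CPM in lesions and between 3.17 and 4.08 CPM in eutopic uterus. It rose by 3.18 ± 0.58 (edgeR, adjusted p = 0.00029), and by 3.17 without libraries 1 and 2. Nr4a1 had another order, at 64.8, 89.2, 33.9 and 28.7 CPM in lesions and 17.8, 8.56, 8.80 and 8.21 CPM in eutopic uterus. Libraries 1 and 2 were the 2 highest lesion libraries for this gene. Its log2 fold change was 2.32 ± 0.34 (edgeR, adjusted p = 4.4e-05), and without those libraries it was 1.5 ± 0.30 (edgeR, adjusted p = 0.00063). Atf3, Egr2 and Nr4a1 were called in each of the 8 fits that left out 1 library.

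The FOS and JUN genes had smaller estimates at 3 months. Fos (ENSMUSG00000021250.14), the partner that makes JUN dimers bind DNA tightly, was at 10.6, 79.0, 32.3 and 26.1 CPM in lesions and 21.3, 15.1, 9.57 and 8.42 CPM in eutopic uterus. Junb (ENSMUSG00000052837.8), a JUN protein that restrains growth in many cells, was at 15.9, 77.3, 81.0 and 106 CPM in lesions and 33, 40.9, 22.2 and 26.1 CPM in eutopic uterus. Fosb (ENSMUSG00000003545.4) was at 1.62, 10.3, 4.76 and 6.16 CPM and 3.60, 2.73, 2.72 and 2.34 CPM. Lesion library 1 lay within the eutopic range for Fos and below it for Junb and Fosb.

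The log2 fold changes at 3 months were 1.44 ± 0.50 for Fos (edgeR, adjusted p = 0.027), 1.19 ± 0.37 for Junb (adjusted p = 0.014) and 1.00 ± 0.39 for Fosb (adjusted p = 0.047). Junb lost its call without lesion library 4 (adjusted p = 0.061), Fos and Fosb without lesion library 2 or without eutopic library 3 or 4, and Fosb also without lesion library 4 or eutopic library 2. Without lesion libraries 1 and 2 Fos was not called (1.08, adjusted p = 0.072), while Fosb and Junb were (adjusted p = 0.034 and 0.00015). With the compared groups alone in the fit, 3 members were called (Atf3, Egr2 and Nr4a1). With a term for the replicate number, 5 were, Fosb being lost (adjusted p = 0.077), and without the filter on low counts Fosb was lost as well (adjusted p = 0.075).

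Jun, Egr1, Ier2 and Ier3 were not called in lesions at 3 months. Jun (ENSMUSG00000052684.5), the main AP-1 partner of Fos, ranged from 79.0 to 218 CPM in lesions and from 102 to 148 CPM in eutopic uterus, a log2 fold change of 0.28 ± 0.22, and without lesion library 1 it was called higher by 0.50 (edgeR, adjusted p = 0.027). Egr1 (ENSMUSG00000038418.8), the closest relative of Egr2 among the members, differed by 0.50 ± 0.33, with 43.6 to 68.3 CPM in lesions and 34.8 to 53.7 CPM in eutopic uterus. Ier2 (ENSMUSG00000053560.6), a nuclear regulator, differed by -0.36 ± 0.18, and was called lower without lesion library 4 (-0.55, adjusted p = 0.016). Ier3 (ENSMUSG00000003541.7), which protects cells from death signals, differed by -0.38 ± 0.39, and its sign turned without lesion libraries 1 and 2 (0.14).

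**Figure D2:**
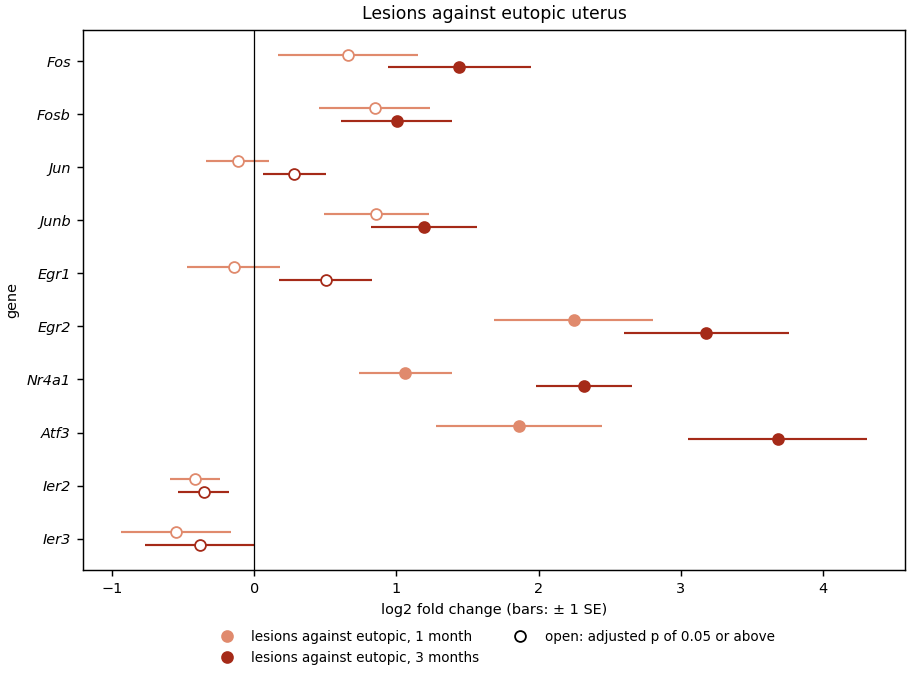
Log2 fold change of the 10 genes in lesions against eutopic uterus at 1 and 3 months, with bars of ± 1 SE and filled points where edgeR's adjusted p was under 0.05. 3 genes are filled at 1 month and 6 at 3 months, and Ier2 and Ier3 lie left of 0 at both times.

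Markers of immune and muscle cells also differed between lesions and eutopic uterus, in either direction. In lesions against eutopic uterus, 8 of 8 T cell and 8 of 8 macrophage genes were called higher at both times. B cell genes were called higher in 7 of 8 at 1 month and 8 of 8 at 3 months. Neutrophil genes were called higher in 6 of 8 at both times, and 1 was called lower at 3 months. Of all genes, 12.0% were called higher and 8.76% lower at 1 month, and 23.4% and 17.1% at 3 months. Macrophage genes summed to 614 to 1478 CPM in lesions at 1 month and to 167, 2409, 1326 and 2511 CPM at 3 months, against 134 to 300 CPM in uterine libraries. At 3 months uterine stroma genes were called lower in 7 of 8 and higher in 1 of 8. Smooth muscle genes were called lower in 7 of 8, and 8 of 8 skeletal muscle genes were called higher. Lesion library 1, with 167 CPM of macrophage genes, was the lowest of its group for 7 of the 10 immediate early genes, with a mean departure of -1.3 from the group means on the log2 scale, and library 2 was the highest for 6. Library 4, with the highest macrophage sum of that group, was the highest for 2. Nr4a1 was at 64.8 CPM in library 1, above libraries 3 (33.9 CPM) and 4 (28.7 CPM). At 1 month lesion library 2, with the highest macrophage sum, was the highest for 6 members, and library 1 the lowest for 7. The part of these cell types in the changes was not tested.

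Lesions at 3 months were then compared with lesions at 1 month. Nr4a1 rose, from a mean of 19.3 ± 6.58 CPM at 1 month to 54.2 ± 28.3 CPM at 3 months (n = 4 each, SD), or by 1.49 ± 0.33 on the log2 scale (edgeR, adjusted p = 0.0073), and it was the 1 member called, where 6.52% of all genes were called higher. Its lowest library at 3 months, 28.7 CPM, lay above its highest at 1 month, 28.3 CPM, and 3.90% of all genes lay higher without overlap. Without lesion libraries 1 and 2 at 3 months the change was 0.68 and not called (adjusted p = 0.19), and it was not called with only the compared libraries in the fit (adjusted p = 0.28). Atf3 differed by 1.55 ± 0.58 (edgeR, adjusted p = 0.087) and Egr2 by 1.02 ± 0.54 (adjusted p = 0.24). Both were called without lesion library 1 at 3 months, which gave 3 members called, and Atf3 was called without libraries 1 and 2 (1.24, adjusted p = 0.012).

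The test of the difference itself, whether the gap between lesions and eutopic uterus was wider at 3 months than at 1 month, called 0 members in edgeR, with 2 at an unadjusted p under 0.05 (Nr4a1 and Atf3), 0 in DESeq2 and 0 in limma voom. Over all genes 0.769% were called and 14.8% had an unadjusted p under 0.05. The change was 1.26 ± 0.46 for Nr4a1 (adjusted p = 0.19) and 1.82 ± 0.81 for Atf3 (adjusted p = 0.29). Without lesion library 1 at 3 months Atf3 was called, with a change of 2.23 (adjusted p = 0.010). The estimate was positive for 10 of 10 members, and these estimates share their libraries.

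Relatives of the members and the genes around them in the pathway were followed in 6 lists. Of 10 AP-1 relatives, 5 rose at 1 month and 7 at 3 months, and 0 fell at either time. These are 50% and 70% higher, against 12.0% and 23.4% of all genes, where 8.76% and 17.1% were called lower. Their median log2 fold changes were 0.77 and 1.14, where those of all genes were -0.01 and 0.04. Fosl1, the FRA-1 subunit of AP-1, had the largest AP-1 change, with 0.0634 ± 0.0252 CPM in eutopic uterus against 0.381 ± 0.250 CPM in lesions at 1 month (2.55 ± 0.74, edgeR, adjusted p = 0.021) and by 3.44 ± 0.75 at 3 months (adjusted p = 0.0013). Its level stayed under 1 CPM on average in every group. Its call was lost at 1 month without lesion library 3 or eutopic library 3, and at 3 months with the compared groups alone. Batf2, a BATF factor of myeloid cells, rose by 2.28 ± 0.65 at 1 month (adjusted p = 0.019), a call lost without lesion library 2 or eutopic library 2. The other AP-1 relatives called at 1 month, named after their values were seen, were Maff (1.54 ± 0.39), Batf3 (1.38 ± 0.48) and Mafk (0.59 ± 0.15).

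Of 5 tested EGR and NR4A relatives, 3 rose at 1 month and 4 at 3 months, and 0 fell (60% and 80% higher, against 12.0% and 23.4% of all genes). Nr4a3, another orphan receptor of the NR4A family, rose by 2.38 ± 0.52 at 1 month (edgeR, adjusted p = 0.0048) and by 2.96 ± 0.54 at 3 months (adjusted p = 0.00028). Egr3 (1.19 ± 0.38 and 1.5 ± 0.38) and Nab2 (0.45 ± 0.15 and 0.43 ± 0.15), a corepressor of EGR factors, were also called at both times, and Nr4a2 at 3 months (0.46 ± 0.18), named after their values were seen.

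MAP kinase phosphatases and feedback inhibitors, which shut off the kinases upstream, were higher in 3 of 11 at 1 month and 6 of 11 at 3 months, and 0 were lower (27.3% and 54.5% higher, against 12.0% and 23.4% of all genes). Dusp4, a nuclear phosphatase, rose from 1.5 ± 0.311 to 11.1 ± 4.15 CPM at 1 month (2.89 ± 0.60, edgeR, adjusted p = 0.0036) and by 3.25 ± 0.61 at 3 months (adjusted p = 0.00040). Of 16 upstream factors (serum response factor and partners, CREB and kinases), 3 were higher and 1 lower at 1 month, and 5 were higher and 1 lower at 3 months. These are 18.8% and 31.2% higher, against 12.0% and 23.4% of all genes. The 1 lower at 1 month was Mapk3, which encodes the kinase ERK1 (-0.46 ± 0.12, adjusted p = 0.010), and at 3 months it was Srf, serum response factor itself (-0.57 ± 0.14, adjusted p = 0.0032, named after its value was seen here).

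Of 30 other early response genes, 4 rose and 2 fell at 1 month, and 12 rose and 2 fell at 3 months. At 1 month these are 13.3% higher and 6.67% lower, near the 12.0% and 8.76% of all genes, and at 3 months 40% higher and 6.67% lower, against 23.4% and 17.1%. Myc, the growth-promoting factor, went the other way from most, with 149 ± 18.7 CPM in eutopic uterus against 75.4 ± 14.1 CPM in lesions at 1 month (-0.98 ± 0.17, edgeR, adjusted p = 0.0011) and 124 ± 22.4 against 41.8 ± 7.69 CPM at 3 months (-1.57 ± 0.17, adjusted p = 3.2e-06). Phlda1, the other that fell at both times, changed by -0.50 ± 0.18 and -0.97 ± 0.18, and its call at 1 month held in 7 of 14 alternatives, being lost without the filter on low counts, without lesion library 1, 2 or 4 and without eutopic library 2, 3 or 4. Between lesions at 3 and 1 months Myc fell too (-0.85 ± 0.17, adjusted p = 0.0039), a call lost with the compared groups alone.

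Of 13 heat shock and handling stress genes, 1 was higher and 1 lower at 1 month, and 1 higher and 2 lower at 3 months, with medians of -0.12 and -0.23. At 1 month that is 7.69% each way, near the shares of all genes (12.0% higher, 8.76% lower), and at 3 months 7.69% higher and 15.4% lower, against 23.4% and 17.1%. Hmox1, which degrades heme, was the 1 higher at 3 months (3.17 ± 0.29, adjusted p = 6.6e-07) and at 1 month (1.86 ± 0.28). Hspe1, a mitochondrial chaperonin, was lower at 1 month (-0.79 ± 0.27, adjusted p = 0.044, a call held in 6 of 14 alternatives and lost without the filter, with the replicate term, without lesion library 1, 2 or 4 and without eutopic library 2, 3 or 4), and Mt2, a metallothionein (-1.69 ± 0.52), and Dnaja1, a chaperone (-0.75 ± 0.17), at 3 months. The inducible chaperone genes Hspa1a and Hspa1b, near-identical copies whose reads may be split between them, were not called at either time.

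Several of these list counts depended on libraries. Without lesion library 2 at 1 month, 2 of 10 AP-1 relatives, 1 of 5 EGR and NR4A relatives, 3 phosphatases and feedback genes, 2 upstream factors, 3 other early response genes and 1 heat shock gene were called higher. Without lesion libraries 1 and 2 at 3 months these counts were 7, 4, 6, 5, 16 and 1. With the compared groups alone at 3 months they were 2 of 9, 1, 3, 3, 4 and 1, in a fit that called fewer of all genes than the main test. At 1 month the calls over all genes ran from 2595 to 4706 when 1 library was left out. A drop in a list and a drop in all calls cannot be told apart from these counts.

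**Figure D3:**
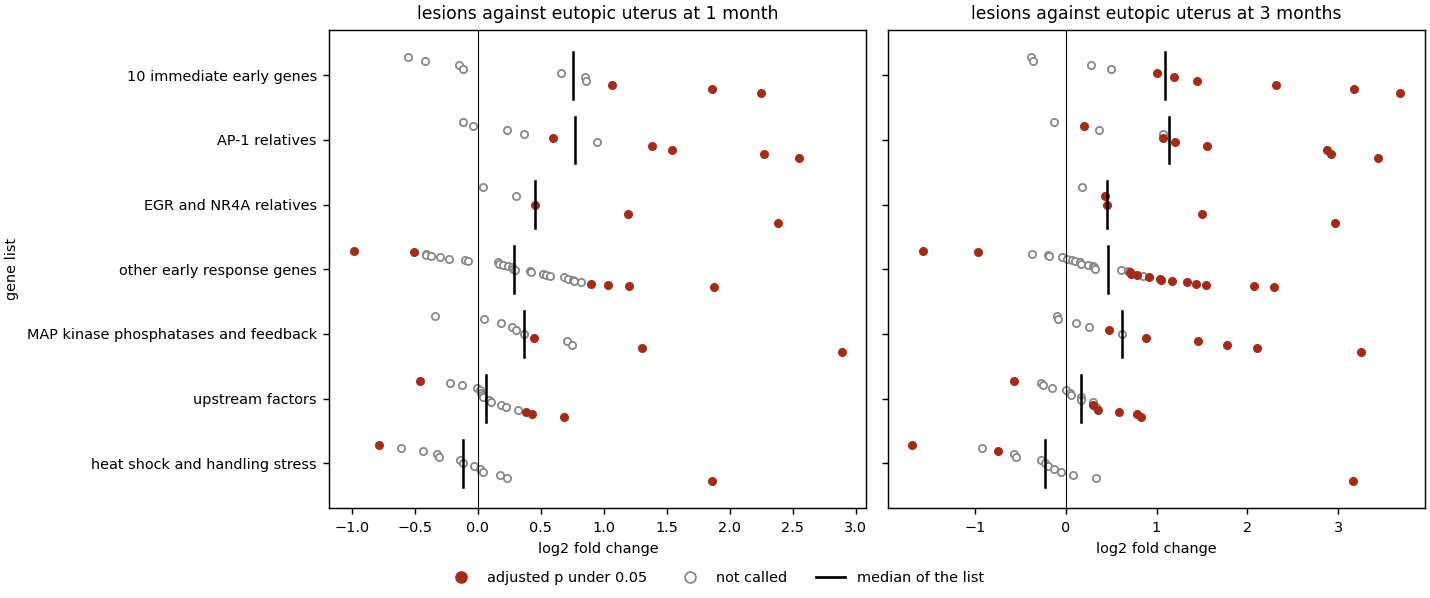
Log2 fold change of each tested gene of 7 lists in lesions against eutopic uterus, at 1 month (left) and 3 months (right), with 1 point per gene, filled where edgeR's adjusted p was under 0.05, and a bar at the median of the list. The points of the AP-1 relatives called lie right of 0 at both times, while the heat shock list lies on both sides of 0, and the scales of the 2 panels differ.

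From 1 to 3 months within lesions, 7 of the 85 tested genes of these lists were called higher and 2 lower. That is near the 6.52% higher and 4.43% lower of all genes, and with the compared groups alone 0 of the 85 were called (edgeR, 10 at an unadjusted p under 0.05, lowest adjusted p = 0.25). In the main test Dusp1, a phosphatase that inactivates p38 and JNK, rose by 1.35 ± 0.36 (edgeR, adjusted p = 0.019), Hmox1 by 1.15 ± 0.27, Cebpb, a bZIP factor of inflammation, by 1.04 ± 0.24, and Sik1, a kinase induced by cyclic AMP, by 0.73 ± 0.22, while Srf fell by 0.62 on the log2 scale. Without lesion libraries 1 and 2 at 3 months Dusp1, Cebpb, Sik1 and Srf were no longer called, and limma voom did not call Dusp1, Sik1 or Srf. Sik1 was also lost without lesion library 1, 3 or 4 at 1 month or library 2 at 3 months, and Dusp1 without lesion library 1 or 4 at 1 month or library 2 at 3 months.

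Eutopic uterus was compared with sham uterus at each time, the comparison that bears on the uterus of affected mice. At 1 month 0 of 10 were called in edgeR, 0 had an unadjusted p under 0.05, and DESeq2 and limma voom called 0. Over all genes 0.00943% were called and 4.80% had an unadjusted p under 0.05. The log2 fold changes ran from -0.45 for Ier3 to 0.12 for Jun. Fos, as an example, was at 9.69 to 16.9 CPM in eutopic uterus and 7.01 to 27.3 CPM in sham uterus, and the eutopic libraries lay within the sham range.

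At 3 months (subfertile against fertile mice) edgeR again called 0 of 10 and 0.00% of all genes. An unadjusted p under 0.05 was found for 2 members, Egr1 and Egr2, and for 4.74% of all genes, and DESeq2 called 1 member (Egr2) and limma voom 0. Egr2 was at 4.02, 3.69, 4.08 and 3.17 CPM in eutopic uterus and at 2.94, 1.85, 1.72 and 1.82 CPM in sham uterus, so each eutopic library lay above each sham library, as was so for 0.948% of all genes. Its log2 fold change was 0.84 ± 0.20 with an adjusted p of 0.996 in edgeR (unadjusted p = 0.00071) and an adjusted p of 0.041 in DESeq2. In the other 14 alternatives of this comparison its adjusted p was at least 0.10.

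Egr1 was at 53.7, 34.8, 44.1 and 35.2 CPM in eutopic uterus and 43.7, 20.6, 22.5 and 10.5 CPM in sham uterus at 3 months, a difference of 0.79 ± 0.36. Fos was at 21.3, 15.1, 9.57 and 8.42 CPM and 15.2, 5.70, 9.08 and 4.70 CPM, a difference of 0.65 ± 0.42. Neither gene was called, and the groups overlapped for both, for Egr1 through sham library 1 and for Fos through sham libraries 1 and 3. The remaining members differed by -0.41 (Ier3) to 0.19 (Nr4a1). Of the 84 tested genes of the pathway lists, 0 were called in edgeR in either comparison with sham, with 5 at an unadjusted p under 0.05 at 1 month and 3 at 3 months. DESeq2 called 0 at either time, and limma voom called 1 lower at 1 month and 0 at 3 months.

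The same sham libraries at 3 months enter the comparison of sham uterus over time, and the values stand side by side. Against sham at 1 month, 0 members were called in edgeR and 0.00% of all genes, while 3 members (Fos, Egr1 and Egr2) and 10.7% of all genes had an unadjusted p under 0.05. DESeq2 called Egr2, and limma voom Egr1 and Egr2, and each of them also called more of all genes than edgeR, as given in the closing section. Egr2 was at 5.05, 3.74, 4.73 and 3.83 CPM in sham uterus at 1 month, above each of the 4 sham libraries at 3 months, and 1.79% of all genes lay lower without overlap. The log2 fold changes were -1.05 ± 0.20 for Egr2 (edgeR, adjusted p = 0.19), -1.11 ± 0.36 for Egr1 (adjusted p = 0.33) and -0.92 ± 0.42 for Fos (adjusted p = 0.45). Without sham library 1 at 3 months, edgeR called 2 members lower, Egr1 (-1.57, adjusted p = 0.038) and Egr2 (-1.27, adjusted p = 0.024), and 431 of all genes.

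In eutopic uterus the same interval gave 0 called members in edgeR, 0 at an unadjusted p under 0.05, and 0 in DESeq2 and limma voom, with log2 fold changes from -0.27 (Atf3) to 0.23 (Nr4a1). Over all genes 0.00943% were called and 2.48% had an unadjusted p under 0.05. Egr2 was at 3.50 ± 0.606 CPM at 1 month and 3.74 ± 0.416 CPM at 3 months (SD, n = 4 each).

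Whether the difference between eutopic and sham uterus itself changed with time was tested as an interaction, and edgeR called 0 members, DESeq2 0 and limma voom 0. The 1 member with an unadjusted p under 0.05 was Egr2, with a change of 1.14 ± 0.28 (unadjusted p = 0.00096, adjusted p = 0.98), and the changes were 0.88 ± 0.50 for Egr1 and 1.03 ± 0.59 for Fos. Over all genes 0.00943% were called and 3.50% had an unadjusted p under 0.05.

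**Figure D4:**
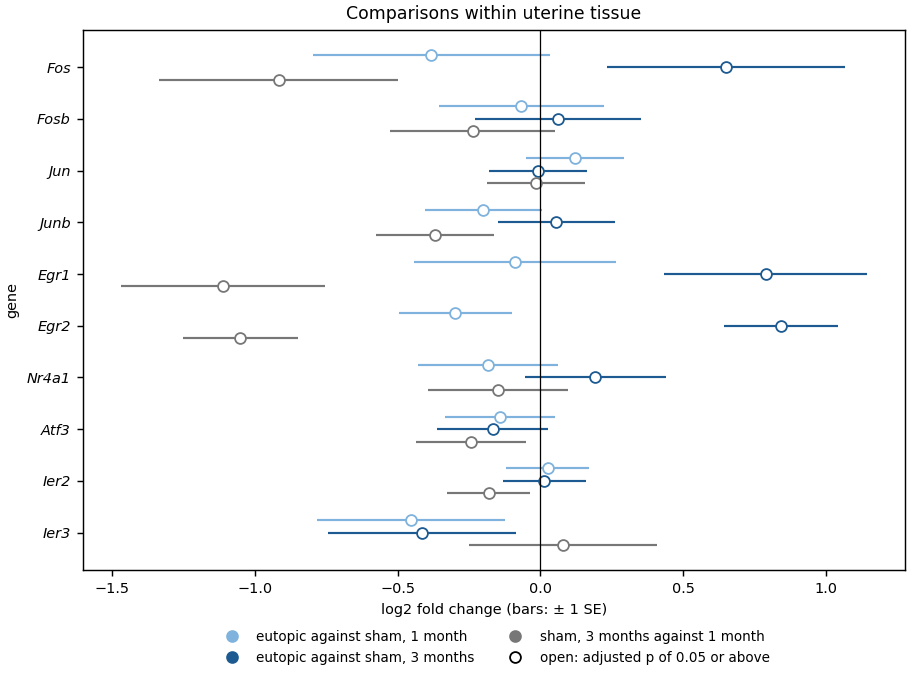
Log2 fold change of the 10 genes in the comparisons within uterine tissue, with bars of ± 1 SE. All points are open, since edgeR's adjusted p was at or above 0.05, and Fos, Egr1 and Egr2 lie right of 0 for eutopic against sham at 3 months and left of 0 for sham over time, 2 comparisons that share the sham libraries at 3 months.

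The order of the groups differed among members. For Egr2 the mean levels, from lowest to highest, were sham at 3 months (2.08 ± 0.575 CPM), eutopic at 1 month (3.50 ± 0.606), eutopic at 3 months (3.74 ± 0.416), sham at 1 month (4.34 ± 0.650), lesions at 1 month (16.7 ± 8.81) and lesions at 3 months (33.9 ± 27.2), with SD over 4 libraries. The neighbouring eutopic groups, and eutopic at 3 months and sham at 1 month, lay within each other's spread, as did both lesion groups. Egr1 was also lowest in sham at 3 months (24.3 ± 13.9 CPM), but its other 5 groups, at 42.0 to 59.4 CPM on average, overlapped.

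For Atf3 and Nr4a1 the means of the uterine groups were close together and those of lesions higher, though single libraries overlapped (Atf3 in lesion library 1 at 3 months, and Nr4a1 at 14.0 CPM in a lesion library at 1 month against 17.8 CPM in a eutopic one at 3 months). Atf3 averaged 6.51 to 8.68 CPM in the 4 uterine groups, 28.5 ± 10.9 CPM in lesions at 1 month and 83.5 ± 81.0 CPM at 3 months. Nr4a1 averaged 9.25 to 10.8 CPM in the uterine groups. Fos (8.67 to 16.4 CPM), Fosb (2.73 to 3.23 CPM) and Junb (29.4 to 38.1 CPM) also had their 4 lowest means in uterine groups. Jun averaged 128 to 156 CPM over all 6 groups with overlapping ranges.

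Ier2 and Ier3 had the reverse order, with lesions lowest. Ier2 averaged 27.8 ± 7.69 and 30.4 ± 4.56 CPM in lesions at 3 and 1 months and 35.2 to 40.6 CPM in uterine groups. Ier3 averaged 22.9 ± 2.96 and 28.1 ± 16.3 CPM in lesions at 1 and 3 months and 33.5 to 48.6 CPM in uterine groups. The ranges of neighbouring groups overlapped in both orders.

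Members also varied between libraries of a group. Within the 16 uterine libraries, after taking off group means, Fos followed the mean of the other 9 members most closely, with r = 0.94 (rho = 0.94, and r = 0.91 without the 2 farthest libraries). Nr4a1 came next (r = 0.63, and 0.61 without the 2 farthest). The order of the rest depended on the 2 libraries left out. These were picked for each gene as farthest from the median of the mean of its other 9 members, so they can differ between genes. Without them r went from 0.59 to 0.41 for Fosb, from 0.084 to 0.41 for Ier2, from 0.19 to 0.50 for Ier3 and from 0.23 to 0.34 for Egr2, and Jun (0.34, then 0.27) became the lowest. These correlations describe 16 libraries that share their normalization, and carry no p. Sham library 1 and eutopic library 1 at 3 months were each the highest of their group for 6 of 10 members, and sham library 4 at 1 month for 6. Mitochondrial genes made up 2.03% to 4.10% of the counts over all 24 libraries.

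Among 13032 other protein-coding genes, those most like the mean of the 10 over the 16 uterine libraries, after taking off group means, were Cd209a (r = 0.94), a lectin of dendritic cells, Ccn1 (0.88), a matrix protein that is itself an immediate early gene, Dusp1 (0.86), Tob2 (0.81), an antiproliferative protein, and Lrrc8a (0.80), a subunit of the volume-regulated anion channel. They were picked as the highest of many, so r is a description. Ccn1 and Dusp1 averaged 20.2 to 30.6 and 16.5 to 20.2 CPM in the uterine groups, and both were called higher in lesions at 3 months (1.44 ± 0.42 and 2.10 ± 0.37).

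**Figure D5:**
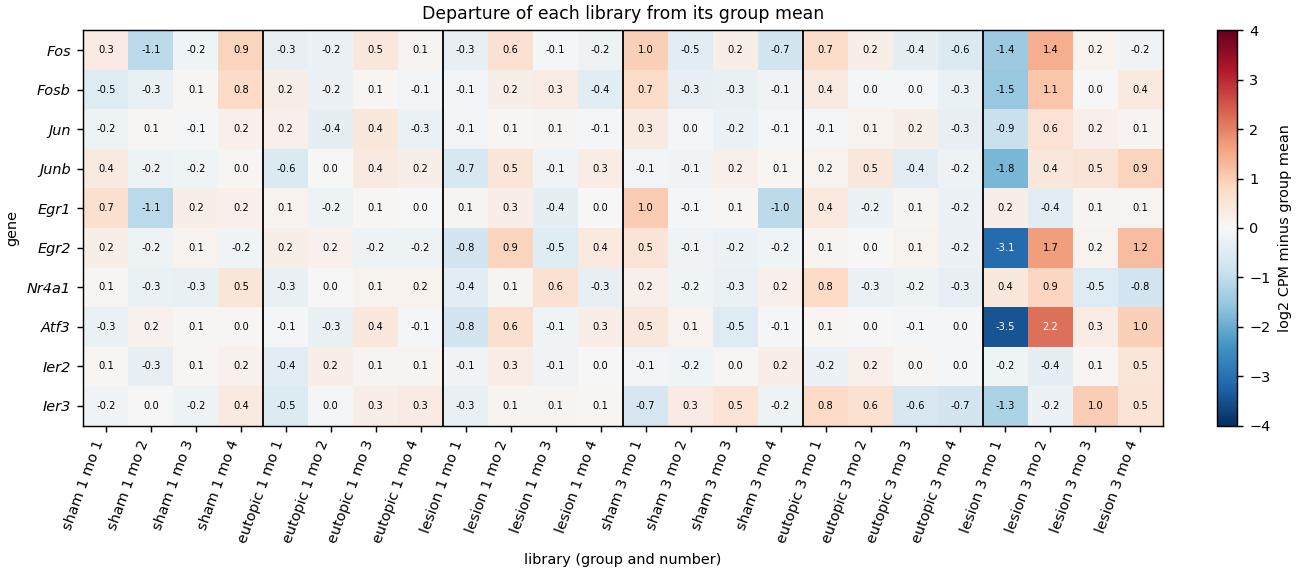
Departure of each library from its group mean for the 10 genes, as log2 CPM minus the group mean, in colour and as printed values, with 24 libraries in columns and vertical lines between groups. The lowest values, -3.5 for Atf3 and -3.1 for Egr2, are in lesion library 1 at 3 months, and the highest, 2.2 for Atf3, is in lesion library 2 at 3 months.

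Reads from overlapping genes may be shared, because the strand setting of the counts is not given in the sources used here. In the GENCODE M21 annotation Jun is overlapped by the antisense gene Junos, Junb by Prdx2 and Atf3 by Gm24748, each on the opposite strand. The counts of these 3 members are uncertain to that extent.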

How the data were processed

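Read counts per gene from 24 RNA sequencing libraries were used, in the table of whole-number counts deposited by the authors, with 1 column per library and none left unmapped. Per the submitters' processing notes, bcl2fastq 1.9.0, STAR 2.7.9a, genome build mm39 and edgeR were used. The annotation, counting mode and strandedness were not given in the sources used here. No batch or date is given.

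Tests used edgeR 4.0.16 under R 4.3.3 (filterByExpr, TMM scaling, quasi-likelihood F-tests on group means). Comparisons within uterine tissue used 16 libraries (21208 genes tested) and comparisons with lesions all 24 (22249 genes), and all 10 members passed the filter in both. p-values were adjusted over all genes tested, and log2 fold changes carry standard errors. Log2 CPM used a prior count of 2. Alternatives were DESeq2 1.42.0, its size factors in edgeR, no filter, limma 3.58.1 voom with sample weights, the compared groups alone, all 24 libraries, a replicate term, leaving out each library, and leaving out lesion libraries 1 and 2 at 3 months. The procedure was tested on simulated data.

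The members, gene lists, marker lists and motifs were chosen with earlier results of these data known. From 6 pathway lists, up to 4 called genes higher and 4 lower by the largest change were named in each comparison. Same-numbered libraries all had r over 0.1 in 1 comparison only, eutopic uterus at 3 months against 1 month (r from 0.105 to 0.202 in 4 of 4 pairs). These tissues were collected at different times, so the correlation does not show that equal numbers mark the same mouse. The replicate term in that comparison left the calls at 0 members.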

Additional observations from a re-analysis of the deposited data

Results flagged for a closer look

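Each of the 60 sets of 4 libraries (10 members in 6 groups) was searched for a library that stood apart by Dixon's criterion at its 95% critical value, and 4 were found, where chance gives about 1 in 20. In sham uterus at 3 months, library 1 was highest for Egr2, at 2.94 CPM against 1.72 to 1.85 CPM in the others, and for Fosb, at 4.37 CPM against 2.07 to 2.34 CPM. Eutopic library 1 at 3 months was highest for Nr4a1, at 17.8 CPM, with the others at 8.21 to 8.80 CPM. In lesions at 1 month, library 1 was lowest for Ier3, at 18.4 CPM against 24.1 to 24.5 CPM.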

How the results depend on the processing

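Over comparisons of members and gene totals, DESeq2 and limma voom called more genes than edgeR where few were called. DESeq2 called 14 genes for eutopic against sham uterus at 1 month, 11 at 3 months (1 member), 159 (1 member) for sham uterus over time, 14 for eutopic uterus over time, 8 for the change of the eutopic against sham difference and 822 for the change of the lesion against eutopic difference, and 2 members in lesions over time. limma voom called 40, 4, 997 (2 members), 6 and 468 genes in the same comparisons except the change of the eutopic against sham difference, 10013 genes and 6 members in lesions against eutopic uterus at 1 month, and 1010 genes and 2 members in lesions over time. With the compared groups alone, the counts were 2 genes for eutopic against sham at 3 months, 6 for eutopic uterus over time, 6 members in lesions at 1 month, 3 members and 3267 genes in lesions at 3 months, 0 members and 0 genes in lesions over time, and 10 genes for the change of the lesion difference. With all 24 libraries in the fit, 0 genes were called for the change of the eutopic against sham difference. Without lesion libraries 1 and 2 at 3 months, 1573 genes were called in lesions over time and 274 for the change of the lesion difference. The causes were not tested.

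Leaving out 1 library at a time gave 1 to 3 members and 2595 to 4706 genes in lesions at 1 month, 1 to 3 members and 1164 to 3850 genes in lesions over time, 0 to 2 members and 0 to 431 genes in sham uterus over time, 1 to 3 genes for the change of the eutopic against sham difference, and 0 to 1 members and 14 to 990 genes for the change of the lesion difference. Signs turned for members with small changes. In eutopic against sham uterus at 1 month the ranges were -0.35 to 0.13 for Egr1, -0.23 to 0.25 for Fosb, -0.079 to 0.15 for Ier2 and -0.034 to 0.23 for Jun. At 3 months they were -0.067 to 0.38 for Fosb, -0.064 to 0.094 for Ier2, -0.091 to 0.12 for Jun, -0.12 to 0.18 for Junb and -0.15 to 0.31 for Nr4a1, and Jun in lesions at 1 month ran from -0.24 to 0.028. limma voom gave -0.016 for Jun at 1 month and 0.13 for Jun, -0.11 for Junb and 0.0029 for Atf3 at 3 months in eutopic against sham uterus, and 0.39 for Ier3 in lesions at 3 months, where leaving out lesion libraries 1 and 2 gave 0.14.

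The replicate block changed 1 member call, Fosb in lesions at 3 months (adjusted p = 0.077), leaving 5 of 6 members. Same-numbered libraries there had correlations from 0.0034 to 0.34, with 3 of 4 best matched to their own number, and in lesions against eutopic uterus at 1 month from 0.073 to 0.19, with 4 of 4 best matched. Not every pair was over 0.1, the cut chosen here, so these numbers were not taken as pairs. Whether equal numbers mark the same mouse is not stated, so a pairing of lesion and eutopic uterus remains possible. Each member had at least 87 reads in each library. The spread between the 4 libraries of a group was mostly wider than counting error, but not for the least variable sets.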
